A study of Homo sapiens with 12 samples.

Results

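Collagens, laminins and integrins were described as a set of 82 genes out of the 25369 in the deposited count table. The members were every gene whose symbol names a collagen alpha chain (44 genes, COL followed by type and chain), a laminin chain (12 genes, LAMA, LAMB and LAMC) or an integrin subunit (26 genes, ITGA and ITGB1 to ITGB8). Poly(A)+ RNA was sequenced from 3 established human cancer cell lines, RKO (colon carcinoma), A549 (lung adenocarcinoma) and H460 (large cell lung carcinoma). Every line was sampled under normoxia and after 24 h of hypoxia at 1% O2, with 2 biological replicates in each of the 6 groups and 12 libraries in all. No line carried an engineered allele or received a drug. RKO and A549 were grown in DMEM and H460 cells in RPMI, so in comparisons with H460 line and medium cannot be told apart. All 3 lines are monocultures, so the stroma that makes much of the collagen in a tumor was not sampled.

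Collagens are extracellular proteins wound from several alpha chains into a helix, and they include the fibril formers of connective tissue, the sheet-forming collagen IV of basement membranes and transmembrane forms. Laminins are built from an alpha, a beta and a gamma chain and form the other main network of basement membranes, on which epithelial cells sit. Integrins pair an alpha with a beta subunit at the cell surface and bind these proteins, with fibronectin and fibrinogen, to the cytoskeleton. Hypoxia is known to raise the prolyl and lysyl hydroxylases that modify collagen chains.

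Counted reads per library ranged from 27350424 to 41757584, and the members took between 0.479% (an RKO normoxia library) and 2.57% (an A549 hypoxia library) of them. Levels are given as TMM-scaled RPKM, that is, reads per kilobase of exon, divided by the scaled size of the library, as mean ± SD of 2 replicates, and changes as log2 fold change of hypoxia over normoxia ± standard error. A gene was called when its adjusted p (edgeR quasi-likelihood test, Benjamini-Hochberg over all tested genes) was under 0.1 and its fold change over 1.5. The 5 hypoxia check genes CA9, NDRG1, VEGFA, SLC2A1 and PDK1 were called higher in all 3 lines. Of the epithelial markers, KRT18 gave at least 3327 reads in every library, but KRT8 only 307 to 525 reads in RKO. CDH1 and KRT19 stayed under a level of 1 in RKO, EPCAM and CDH1 in H460 and KRT19 in A549. The summed level of the epithelial markers in RKO was 126 and 119 in normoxia and 67.8 and 64.9 in hypoxia, where KRT18 fell (-1.05 ± 0.15), and the part of this in the RKO changes was not tested. CDX2 was the single intestinal marker above a level of 1 in RKO, and KRT7 gave at least 107128 reads in each A549 library. The surfactant gene SFTPB gave at most 4 reads in any library, and NKX2-1 reached 87 and 98 reads in H460 hypoxia and at most 8 elsewhere. The 5 fibroblast markers summed to a level of at most 3.61 and the 5 endothelial markers to at most 0.137 in any library.

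The normoxia baseline of the members differed widely between lines. RKO had the sparsest repertoire, with 63 of the 82 members under a level of 1, against 41 in A549 and 41 in H460. In normoxia 7 members reached a level of 100 in A549, 6 in H460 and 1 in RKO. ITGB1, the beta subunit shared by most matrix-binding integrins, was the highest member in RKO (688 ± 88.7) and A549 (754 ± 100.4) and was lower in H460 (204 ± 17.2). In RKO it made up 70.5% of the summed level of the members.

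The members below ITGB1 differed from line to line. In RKO they were LAMA1 (35.1), COL27A1 (34.4), ITGA5 (31.4), LAMB1 (31.0), LAMB2 (19.5), LAMC1 (19.0), COL6A1 (16.7), LAMB3 (16.3) and ITGA3 (13.8), all as mean levels. In A549 they were COL7A1, the collagen of anchoring fibrils (259), ITGA3, which pairs with ITGB1 as a laminin receptor (218), COL4A2 (160.5), LAMB1 (116), COL5A1 (115), COL4A1 (101), LAMA5 (92.1), COL6A1 (81.3) and LAMC1 (78.3). In H460 the fibrillar chain COL5A2 led (609 ± 7.11), followed by LAMC1 (228), ITGB1, LAMB1 (155), the short-chain collagen COL8A1 (123), LAMA1 (117), LAMA5 (99.3), ITGB5 (81.7), COL4A5 (73.3) and COL4A6 (66.6). With 2 libraries a group, neighbors in these orders whose means lie within the replicate SD, such as LAMA1 and COL27A1 in RKO, were not separated.

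**Figure D1:**
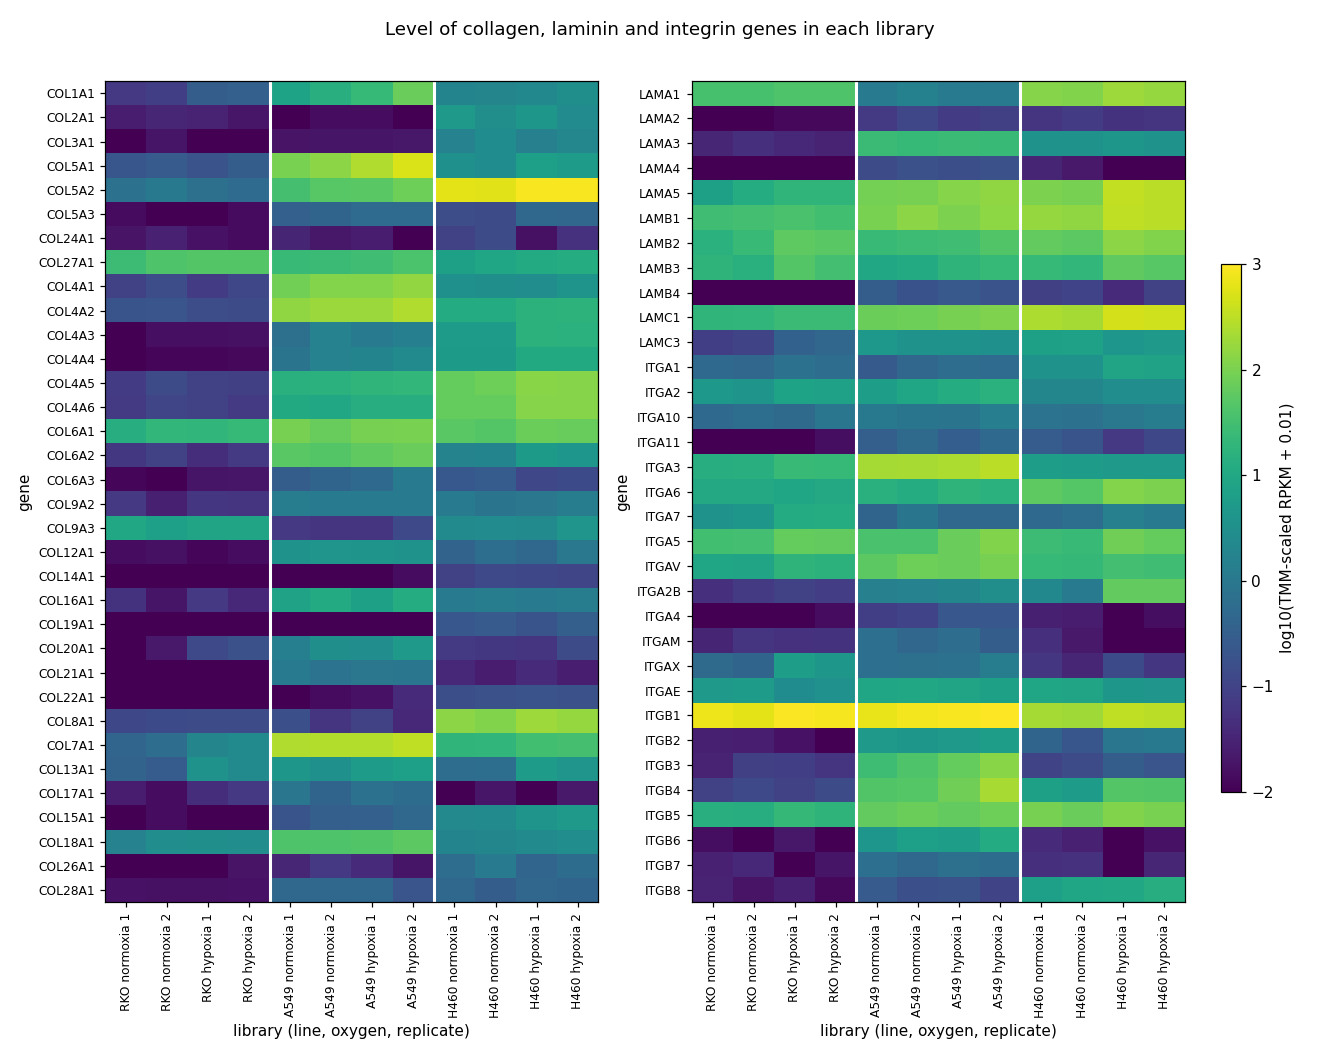
Level of 67 members tested in at least 1 line in each of the 12 libraries, as log10 of TMM-scaled RPKM plus 0.01. Rows are genes grouped by role and columns are libraries. ITGB1 was high in every library, COL5A2 and COL8A1 stood out in H460, and the collagen IV chains were near the floor in RKO.

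In a fit of all 12 libraries, 69 members were tested between the lines in normoxia. RKO and A549 differed in 56 of them, 5 higher in RKO and 51 higher in A549, against 60.2% of all tested genes called in either direction. RKO and H460 differed in 59, 7 higher in RKO and 52 higher in H460 (61.9% of all genes), and A549 and H460 in 56, 33 higher in A549 and 23 higher in H460 (52.1% of all genes). By direction, 26% of all tested genes were called higher in RKO and 34.1% higher in A549. For RKO and H460 these shares were 27.2% and 34.7%, and for A549 and H460 they were 26.9% and 25.2%. Collagen IV, the basement membrane collagen, separated RKO from the lung lines. COL4A1 gave 21 and 37 reads in RKO normoxia against 23547 and 30622 in A549 (log2 difference -9.77 ± 0.32), and COL4A2 gave 44 and 50 against 37927 and 44274 (-9.68 ± 0.25). COL4A4 gave 1 read in the 2 RKO normoxia libraries together against 1032 in A549, a ratio of 978 with a 95% counting interval of 175 to 38700, and 3381 in H460, a ratio of 4190 (752 to 166000). COL4A3 gave 2 reads in RKO against 2754 in H460 (1710-fold, 472 to 14100), and COL4A6 was lower in RKO than in H460 by a log2 difference of -9.66 ± 0.23. COL15A1, a basement membrane zone collagen, gave 1 read against 779 in H460 (966-fold, 173 to 38200). These intervals are exact binomial and cover counting error alone.

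Single members marked one lung line. COL8A1 gave 11762 and 11895 reads in H460 normoxia, against 13 and 15 in RKO (log2 difference -10.04 ± 0.32) and 20 and 6 in A549 (-10.24 ± 0.33). The cartilage collagen COL2A1 gave 1205 reads in H460 normoxia and 1 in A549 (1580-fold, 95% counting interval 282 to 62300), and the fibrillar collagen COL3A1 251 and 497 reads against 2 and 2 (-7.83 ± 0.52). A549 in turn carried ITGB3, the beta subunit of the fibrinogen and vitronectin receptors, with 5611 and 8139 reads against 13 and 22 reads in H460 (8.21 ± 0.44). ITGB6, an epithelial subunit that binds latent TGF-beta, gave 836 and 1263 reads in A549, 4 and 3 reads in H460 (7.78 ± 0.53) and 1 read in RKO (1990-fold, 357 to 78600). COL21A1 gave 336 reads in A549 normoxia and 0 in RKO, where the limit of 3 reads over both libraries made it at least 106-fold higher in A549. All adjusted p for these tested differences were under the threshold, the highest being 1.18e-07 for COL21A1, and none of them reversed under any alternative that was run.

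Most of the members called after hypoxia were higher, although in RKO and A549 most tested members were not called. In RKO 36 members were tested, and 14 were called higher and 1 lower, where 18.8% of all tested genes were higher, 15.1% lower and 33.9% called either way. In A549, 8 of 60 were higher and 0 lower, against 2.22%, 0.456% and 2.67% of all genes. In H460, 24 of 58 were higher and 6 lower, against 24.6%, 27.3% and 51.9%. The same shares of all tested genes are the background for the counts in smaller groups of members below. The median log2 fold change of the tested members was 0.36, 0.32 and 0.53 in RKO, A549 and H460, beside medians of 0.01, -0.01 and -0.04 over all tested genes. In all, 37 members were called in at least 1 line, 2 were called higher in 3 lines, 10 higher in 2 lines and 1 lower in 2 lines, and 1 was called in opposite directions. At an unadjusted p under 0.05, 17, 16 and 44 members passed, and in A549 DESeq2 called 8 higher and 0 lower, with 0 lower at that unadjusted p. In H460, scaling by library size alone lowered every log2 fold change by about 0.35 relative to TMM, and then 20 members were called higher and 9 lower, against 14.7% and 40.9% of all genes, so H460 changes are stated relative to the TMM reference.

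The 82 members divided by detectability. There were 33 members tested in all 3 lines, 19 in 2 lines, 17 in 1 line and 13 in none. A member could pass the filter through hypoxia alone or normoxia alone, so these counts are not a sample of the family. ITGA8 gave no read in any library. COL11A2 spans several copies of its region in the deposited annotation, so its level per length is not given. It had 32 to 314 reads per library and was not called in any line.

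**Figure D2:**
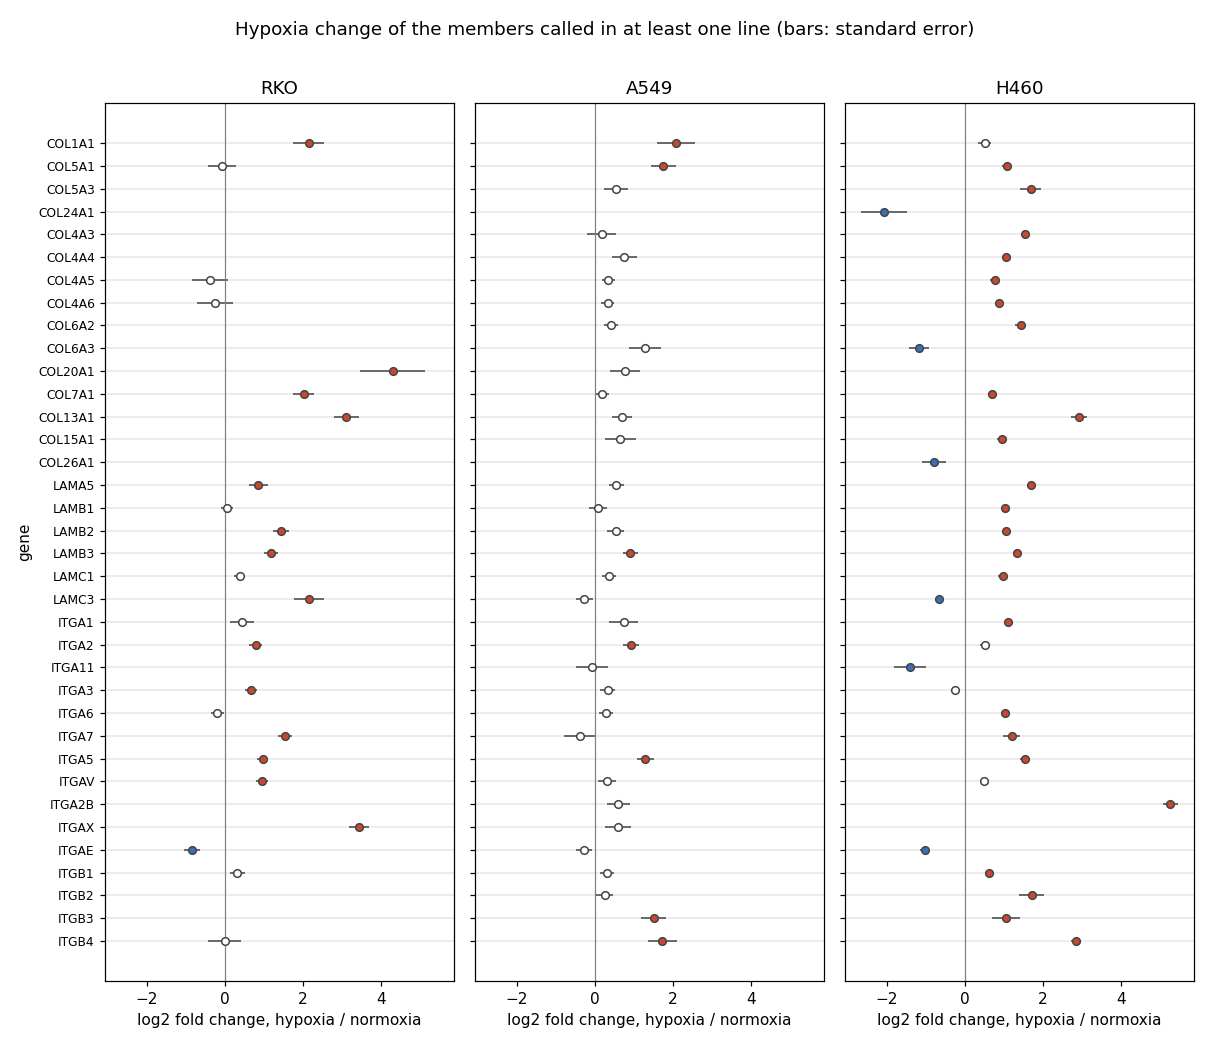
Log2 fold change of hypoxia over normoxia with standard error for 36 of the 37 members called in at least 1 line, by cell line. Red symbols were called higher and blue ones lower, white ones were tested and not called, and a missing symbol was not tested. ITGA5 and LAMB3 are red in all 3 panels, and LAMC3 is red in RKO and blue in H460.

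ITGA5 and LAMB3 were the members called higher in all 3 lines, where 0.977% of the 11873 genes tested in every line were called higher in all of them. ITGA5 encodes the alpha subunit that pairs with ITGB1 as the main fibronectin receptor. It gave 4984 and 5380 reads in normoxia and 11066 and 10276 in hypoxia in RKO, 6473 and 6394 reads in normoxia and 12468 and 16393 in hypoxia in A549 and 3273 and 3471 reads in normoxia and 8357 and 8221 in hypoxia in H460. Every hypoxia library stood above every normoxia library of its line, a separation that 70.5%, 49.7% and 86.4% of all tested genes showed, in either direction, in RKO, A549 and H460. The log2 fold changes were 0.97 ± 0.15 (adjusted p = 0.000782), 1.30 ± 0.23 (0.0308) and 1.53 ± 0.11 (2.36e-07), from levels of 31.4 ± 0.337, 37.0 ± 0.462 and 25.5 ± 2.37 to 64.2 ± 0.323, 91.5 ± 28.6 and 74.5 ± 11.2. LAMB3, the beta chain of the epithelial laminin-332, gave 2954 and 2705 reads in normoxia and 8210 and 5498 in hypoxia in RKO, 1882 and 2046 reads in normoxia and 3367 and 3448 in hypoxia in A549 and 2854 and 3165 reads in normoxia and 6436 and 6447 in hypoxia in H460. Its log2 fold changes were 1.19 ± 0.18 (adjusted p = 0.000775), 0.91 ± 0.18 (0.0559) and 1.34 ± 0.10 (3.86e-07), again without overlap between conditions. In A549 the LAMB3 call was lost without normoxia replicate 1 (0.84, adjusted p = 0.109) and without hypoxia replicate 2 (0.76, adjusted p = 0.176).

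In the deposited GRCh37 annotation ITGA5 lies at chr12:54789045-54813050 (minus strand), LAMB3 at chr1:209788218-209825820 (minus strand), COL13A1 at chr10:71561644-71718904 (plus strand) and ITGA2B at chr17:42449550-42466873 (minus strand), and their reads were counted over exons. The promoters of 5 members are shown, because these genes gave the shared rise (ITGA5, LAMB3), a large rise (COL13A1, ITGA2B) or a rise as a gene pair (COL4A4). The sequences are from RefSeq on build GRCh38.p14, run from 250 bases before to 50 bases after the annotated start and are written 5′ to 3′ on the gene's strand. Capitals mark the core letters of the hypoxia response element, ACGTG or GCGTG on either strand (CACGT or CACGC when read on the printed strand). No motif overlapped another in these windows.
ITGA5 (chr12:54419217-54419516, minus strand): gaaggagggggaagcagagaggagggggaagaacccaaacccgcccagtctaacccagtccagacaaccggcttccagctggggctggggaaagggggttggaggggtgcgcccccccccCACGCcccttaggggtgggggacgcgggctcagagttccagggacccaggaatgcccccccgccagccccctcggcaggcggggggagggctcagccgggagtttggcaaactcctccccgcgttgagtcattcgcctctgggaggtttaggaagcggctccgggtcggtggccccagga
LAMB3 (chr1:209652376-209652675, minus strand): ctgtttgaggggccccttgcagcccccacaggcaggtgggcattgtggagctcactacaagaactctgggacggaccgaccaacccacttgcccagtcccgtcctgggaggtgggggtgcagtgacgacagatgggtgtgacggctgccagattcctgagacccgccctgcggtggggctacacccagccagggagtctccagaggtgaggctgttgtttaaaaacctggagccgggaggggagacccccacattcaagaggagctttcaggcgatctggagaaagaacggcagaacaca
COL13A1 (chr10:69801656-69801955, plus strand): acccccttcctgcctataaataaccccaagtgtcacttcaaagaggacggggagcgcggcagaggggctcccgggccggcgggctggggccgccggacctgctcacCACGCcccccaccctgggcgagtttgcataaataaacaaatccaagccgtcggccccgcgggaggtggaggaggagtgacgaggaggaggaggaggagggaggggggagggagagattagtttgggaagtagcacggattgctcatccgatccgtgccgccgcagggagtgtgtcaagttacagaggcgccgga
ITGA2B (chr17:44389600-44389899, minus strand): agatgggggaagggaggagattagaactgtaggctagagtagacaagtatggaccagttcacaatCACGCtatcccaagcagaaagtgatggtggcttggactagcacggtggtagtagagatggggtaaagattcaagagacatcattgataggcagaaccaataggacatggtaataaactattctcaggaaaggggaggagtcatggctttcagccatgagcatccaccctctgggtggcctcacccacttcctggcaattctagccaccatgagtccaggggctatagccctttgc
COL4A4 (chr2:227164156-227164455, minus strand): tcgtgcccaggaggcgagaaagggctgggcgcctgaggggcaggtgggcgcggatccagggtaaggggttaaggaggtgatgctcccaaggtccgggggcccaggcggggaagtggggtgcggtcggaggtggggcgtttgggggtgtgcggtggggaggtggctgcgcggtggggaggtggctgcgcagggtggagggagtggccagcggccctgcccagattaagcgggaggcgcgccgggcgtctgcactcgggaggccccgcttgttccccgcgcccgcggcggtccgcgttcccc

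Each of ITGA5, COL13A1 and ITGA2B held 1 match in its window and LAMB3 and COL4A4 held 0. COL4A3, the gene paired with COL4A4, held 1 match in its own window, which is not printed. Promoter sequences matched 58 of the 82 members by symbol, and 25 of them (43.1%) held at least 1 match, beside 13213 of 27305 promoters in the table (48.4%). Among the 8 matched members called higher in at least 2 lines the motif stood in 4, and among the 36 called higher in no line in 15. A match describes letters in a short window and says nothing on binding.

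**Figure D3:**
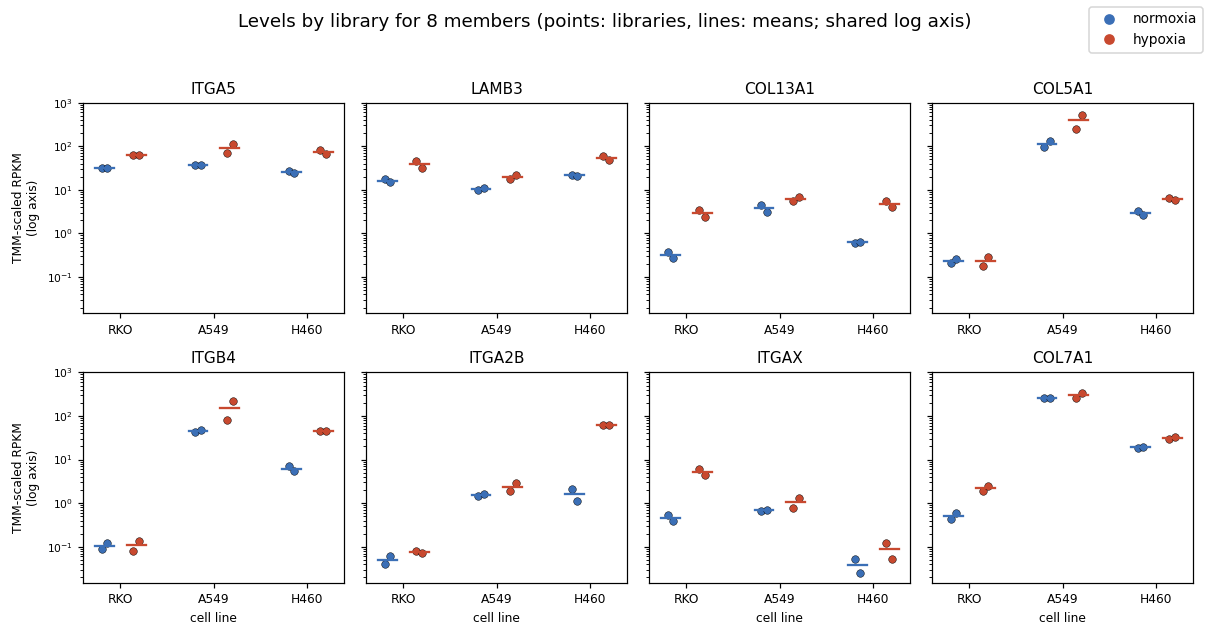
TMM-scaled RPKM (shared log axis) of 8 members in each library, by cell line, with blue points for normoxia, red points for hypoxia and lines for the means of 2 replicates. ITGA5 and LAMB3 rose in every line, ITGA2B rose in H460 and ITGAX in RKO, and the A549 hypoxia points of COL5A1 and ITGB4 lie far apart.

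Among the fibrillar collagens, which build the fibers of connective tissue, RKO had 1 called higher of 5 tested, A549 2 of 6, and H460 2 higher and 1 lower of 9. COL5A1, a chain of the collagen that starts fibril assembly, gave 34379 and 45644 reads in normoxia and 88248 and 155493 in hypoxia in A549, a log2 fold change of 1.76 ± 0.33 (adjusted p = 0.0409), and 771 and 772 reads in normoxia and 1332 and 1443 in hypoxia in H460 (1.08 ± 0.11, 4.06e-06). Its partner chain COL5A2 had the opposite balance between lines, since its normoxia level was 609 in H460, where COL5A1 stood at 2.92, and 41.7 in A549, where COL5A1 stood at 115. COL5A2 passed the adjusted p in H460 but not the fold threshold (0.54 ± 0.11, adjusted p = 0.000752) and was not called in A549 (0.63 ± 0.25, adjusted p = 0.254), but was called there without hypoxia replicate 1 (0.89, adjusted p = 0.0101). COL1A1, the main chain of bone and skin collagen, gave 1972 and 3395 reads in normoxia and 5410 and 14762 in hypoxia in A549 (2.08 ± 0.48, adjusted p = 0.0824). COL1A2, which normally pairs with it, gave at most 5 reads in any library. COL1A1 was also called in RKO with 13 and 18 reads in normoxia and 70 and 75 in hypoxia, but passed the count filter there through its hypoxia libraries alone. COL27A1 was present in all 3 lines and not called by edgeR in any, with log2 fold changes from 0.33 ± 0.20 in RKO to 0.56 ± 0.12 in H460, where DESeq2 called it (0.60, adjusted p = 3.33e-05). Single libraries also decided its call, which was made in RKO without normoxia replicate 2 (0.67, adjusted p = 0.0253) and in H460 without normoxia replicate 2 (0.70, adjusted p = 0.000209) or hypoxia replicate 1 (0.66, adjusted p = 1.80e-06). In H460 COL5A3 rose from 25 and 27 to 66 and 78 reads, and COL24A1 fell from 16 and 29 to 1 and 8. COL24A1 passed the count filter in H460 through its normoxia libraries alone.

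The hypoxia replicates of A549 lay apart. The 8 members called in A549 were all higher in hypoxia replicate 2 than in replicate 1, as were 42 of the 60 tested members. COL1A1 stood at 2.00 times its normoxia mean level in replicate 1 and at 6.50 times in replicate 2. The COL1A1 call was lost without A549 normoxia replicate 1 (1.73, adjusted p = 0.101), as was that of ITGB3. DESeq2 did not call COL1A1 in A549 either (2.08, adjusted p = 0.167), and called COL6A3 in its place (1.28, adjusted p = 0.0412), which edgeR called without hypoxia replicate 1 (1.78, adjusted p = 0.000162).

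Collagen IV genes lie in head-to-head pairs that share a short promoter region. In the deposited GRCh37 annotation the 5′ ends were 135 bases apart for COL4A1 and COL4A2 (chromosome 13), 6 for COL4A3 and COL4A4 (chromosome 2) and 347 for COL4A5 and COL4A6 (chromosome X). Of the 6 genes, 4 were called higher in H460, and edgeR and DESeq2 called 0 of 4 tested in RKO and 0 of 6 in A549, where 0 and 1 had an unadjusted p under 0.05. In H460 both members of the COL4A3 and COL4A4 pair rose. COL4A3 gave 1243 and 1511 reads in normoxia and 3196 and 3659 in hypoxia (1.55 ± 0.09, adjusted p = 2.56e-08) and COL4A4 1544 and 1837 reads in normoxia and 2698 and 3276 in hypoxia (1.05 ± 0.08, 4.53e-07). COL4A5 gave 12336 and 17774 reads in normoxia and 19856 and 23344 in hypoxia (0.77 ± 0.10) and COL4A6 13028 and 15675 reads in normoxia and 20199 and 24590 in hypoxia (0.87 ± 0.09). Scaled by library size alone, the COL4A5 and COL4A6 changes were 0.41, adjusted p = 0.00301 and 0.52, adjusted p = 0.000133, under the fold threshold. COL4A1 and COL4A2, the chains found in nearly every basement membrane, were not called in H460 (0.06 ± 0.14 and 0.45 ± 0.08) or in A549 (0.42 ± 0.22 and 0.43 ± 0.22), where they were most abundant. In A549 COL4A3 changed by 0.18 ± 0.37 and COL4A4 by 0.76 ± 0.32 (adjusted p = 0.85 and 0.279), and leaving out normoxia replicate 2 took COL4A4 to 1.35, adjusted p = 0.0441, and leaving out hypoxia replicate 1 took it to 0.92, adjusted p = 0.0477. In RKO the 6 genes gave at most 50 reads per library.

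The transmembrane collagen COL13A1 and the anchoring fibril collagen COL7A1 were each called in RKO and H460. COL13A1, which sits at cell adhesion sites, gave 44 and 35 reads in normoxia and 440 and 287 in hypoxia in RKO (3.11 ± 0.32, adjusted p = 0.000127) and 54 and 69 reads in normoxia and 426 and 361 in hypoxia in H460 (2.93 ± 0.21, 1.70e-07). In A549 it started higher, with 574 and 403 reads in normoxia and 725 and 734 in hypoxia, and was not called (0.70 ± 0.25, adjusted p = 0.22), although the call was made without hypoxia replicate 1 (0.83, adjusted p = 0.0915). COL13A1 levels in hypoxia were 2.95 ± 0.743 in RKO, 6.20 ± 0.822 in A549 and 4.83 ± 1.22 in H460. COL7A1 gave 147 and 223 reads in normoxia and 705 and 855 in hypoxia in RKO (2.02 ± 0.26, adjusted p = 0.000344) and 4847 and 6203 reads in normoxia and 6573 and 8748 in hypoxia in H460 (0.70 ± 0.09, 2.67e-05). Scaled by library size alone, the COL7A1 change in H460 was 0.35, adjusted p = 0.00566, under the fold threshold. In A549, where COL7A1 was most abundant, it went from 259 ± 5.22 to 297 ± 47.1 and was not called (0.19 ± 0.19, adjusted p = 0.657).

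Of the beaded filament collagens, 1 was called higher and 1 lower of 3 tested in H460. COL6A2, a chain of the beaded filaments around cells, gave 210 and 261 reads in normoxia and 544 and 533 in hypoxia in H460 (1.44 ± 0.14, adjusted p = 2.40e-06), while its partner COL6A1 changed by 0.52 ± 0.09, under the fold threshold, and COL6A3 fell from 70 and 103 to 27 and 38 reads. COL6A1 was called without RKO normoxia replicate 2 (0.64, adjusted p = 0.0318) and without H460 hypoxia replicate 2 (0.60, adjusted p = 2.84e-05). COL15A1 rose in H460 (339 and 440 reads in normoxia and 511 and 781 in hypoxia, 0.95 ± 0.14). COL8A1 in H460 changed by 0.48 ± 0.11 and passed the adjusted p (0.00196) but not the fold threshold, which it passed without hypoxia replicate 2 (0.60, adjusted p = 7.07e-05). Of the fibril-associated collagens, 0 of 5 tested in A549 and 0 of 7 in H460 were called by edgeR or DESeq2, and 0 had an unadjusted p under 0.05. In A549 COL20A1 was nevertheless called without normoxia replicate 2 (1.44, adjusted p = 0.0745) or hypoxia replicate 1 (1.10, adjusted p = 0.0167). COL20A1 was called in RKO, with 0 and 2 reads in normoxia and 20 and 26 in hypoxia, a ratio of 22.8 with a 95% counting interval of 5.97 to 194. It passed the count filter in RKO through its hypoxia libraries alone, so this call and ratio belong to a member selected by its high group. COL26A1 was called lower in H460, where the conditions nearly met (52 and 112 reads in normoxia, 30 and 50 in hypoxia), and the call was lost without normoxia replicate 2 (-0.34, adjusted p = 0.419) or without hypoxia replicate 1 (-0.57, adjusted p = 0.133).

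Of the laminin genes, 5 of 9 tested were called higher and 1 lower in H460, 4 of 8 were higher in RKO and 2 of 12 were higher in A549. LAMA5, LAMB1, LAMB2 and LAMC1 are the chains of laminin-511 and laminin-521, the laminins of most adult epithelial basement membranes. In H460 LAMA5 gave 33235 and 37600 reads in normoxia and 93478 and 102308 in hypoxia (1.70 ± 0.11, adjusted p = 7.32e-08). LAMB1 gave 26847 and 29464 reads in normoxia and 47377 and 50536 in hypoxia (1.03 ± 0.11), LAMB2 10358 and 11119 reads in normoxia and 18867 and 19108 in hypoxia (1.06 ± 0.11) and LAMC1 54958 and 56823 reads in normoxia and 88042 and 99678 in hypoxia (0.97 ± 0.11). The mean levels of these 4 chains in H460 hypoxia were 325, 319, 125 and 451. LAMA1, the embryonic alpha chain of laminin-111, changed by 0.55 ± 0.11 there, under the fold threshold, and by 0.69, adjusted p = 3.33e-05 without hypoxia replicate 2.

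In RKO, LAMB2 and LAMA5 of these chains were called. LAMB2 gave 3392 and 5472 reads in normoxia and 13404 and 11775 in hypoxia (1.44 ± 0.20, adjusted p = 0.00048) and LAMA5 3021 and 5809 reads in normoxia and 8721 and 8008 in hypoxia (0.86 ± 0.23, 0.0148), while LAMB1 (0.06 ± 0.15, adjusted p = 0.797) and LAMC1 (0.38 ± 0.15, 0.0618) were not called. The 2 normoxia libraries of RKO lay apart for LAMA5, and without normoxia replicate 1 its change was 0.50, adjusted p = 0.0999. In A549 none of LAMA5 (0.56 ± 0.18), LAMB1 (0.08 ± 0.22), LAMB2 (0.53 ± 0.21) and LAMC1 (0.36 ± 0.17) was called, and without hypoxia replicate 1 the changes of LAMA5 (0.70, adjusted p = 0.0753) and LAMB2 (0.79, adjusted p = 0.0269) were.

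LAMA3, the alpha chain that joins LAMB3 in laminin-332, had a normoxia level of 24.1 ± 2.53 in A549, beside 10.7 ± 0.856 for LAMB3. LAMB3 rose there, while LAMA3 did not move past the test (0.03 ± 0.18, adjusted p = 0.952). In RKO, LAMB3 reached 38.8 ± 9.08 in hypoxia while LAMA3 stood at 0.0238. In H460 hypoxia the levels of LAMA3 and LAMB3 were 4.04 and 54.7. LAMC3, a gamma chain of few tissues, was called in opposite directions, with 17 and 23 reads in normoxia and 86 and 101 in hypoxia in RKO (2.16 ± 0.38, adjusted p = 0.00173) and 1208 and 1498 reads in normoxia and 622 and 849 in hypoxia in H460 (-0.65 ± 0.10, 9.61e-05). In RKO its normoxia libraries alone would not have passed the count filter, so that call belongs to a member selected by its high group. The H460 call fell under the fold threshold without hypoxia replicate 1 (-0.55, adjusted p = 0.000261). LAMA2 and LAMA4, the alpha chains of muscle and vessel laminins, gave at most 49 reads in any library.

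**Figure D4:**
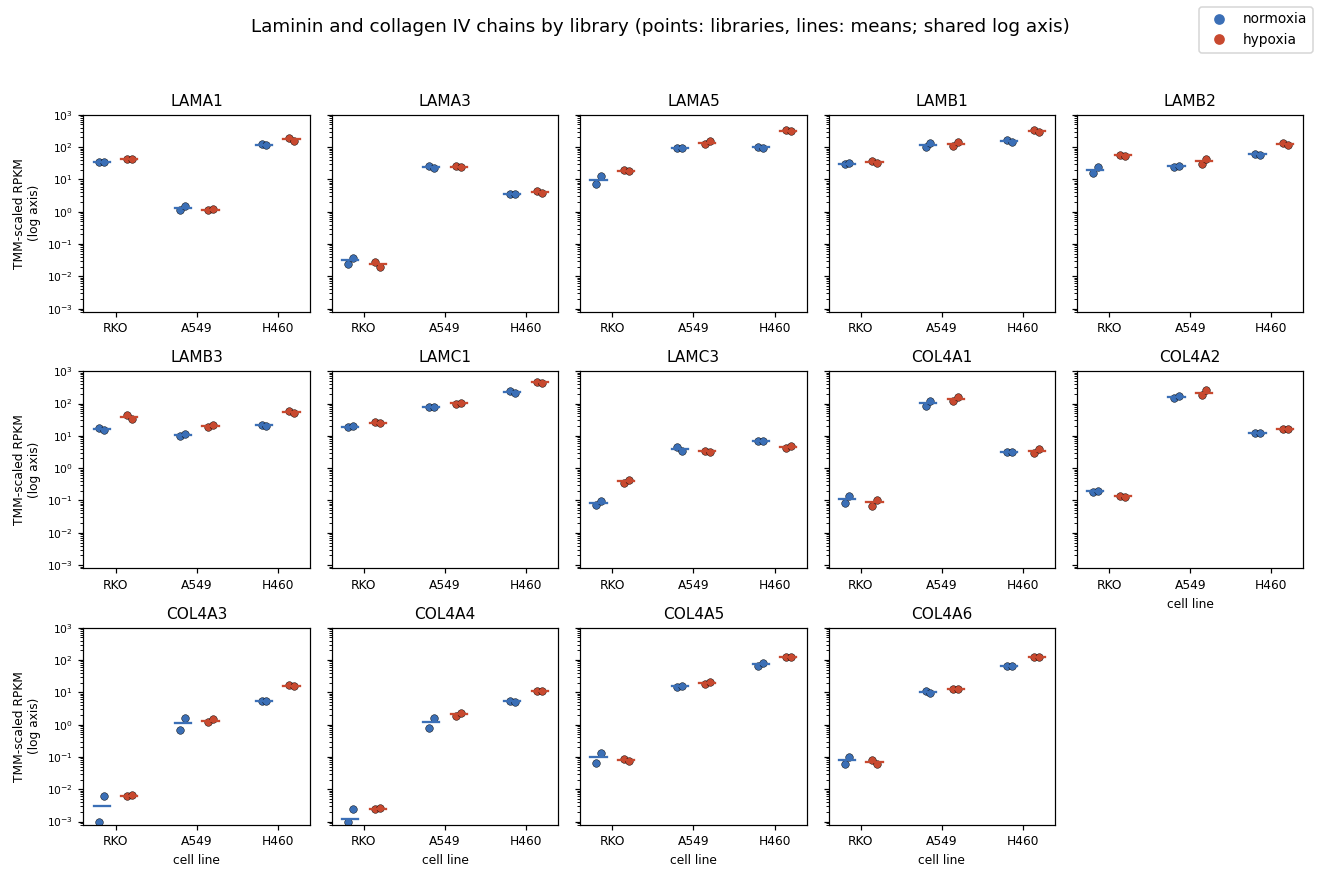
TMM-scaled RPKM (shared log axis) of 8 laminin chains and the 6 collagen IV chains in each library, by cell line, with blue points for normoxia, red for hypoxia and lines for means. Libraries with no read are drawn at 0.001. LAMB3 stood near LAMA3 in A549 but far above it in RKO, and collagen IV was lowest in RKO.

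Some integrin alpha subunits bind fibronectin and other proteins with an RGD motif. Both members tested in RKO, 1 of 3 in A549 (ITGA5) and 2 of 3 in H460 were called higher. ITGA2B, the platelet fibrinogen receptor subunit, gave 199 and 130 reads in normoxia and 4914 and 5990 in hypoxia in H460, the largest change of any member there (5.26 ± 0.19, adjusted p = 1.77e-09), from 1.62 ± 0.685 to 61.8 ± 0.0688. Its beta partner ITGB3 stood at 0.244 ± 0.0665 in those cells. ITGA2B gave 207 and 221 reads in normoxia and 264 and 332 in hypoxia in A549 and was not called (0.61 ± 0.29, 0.338), and it gave at most 11 reads in an RKO library. ITGAV, the alpha subunit shared by the vitronectin receptors, rose in RKO (2373 and 2395 reads in normoxia and 5296 and 4470 in hypoxia, 0.96 ± 0.15, adjusted p = 0.000825) and was not called in A549 (0.31 ± 0.22) or H460 (0.50 ± 0.09, under the fold threshold).

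Of the 4 collagen-binding alpha subunits, RKO had 1 called higher of 3 tested, A549 1 of 4, and H460 1 higher and 1 lower of 4. ITGA2, a collagen receptor subunit of epithelia and platelets, was called in RKO (1361 and 1231 reads in normoxia and 2592 and 2166 in hypoxia, 0.80 ± 0.16, adjusted p = 0.00371) and A549 (2082 and 2722 reads in normoxia and 4033 and 4357 in hypoxia, 0.92 ± 0.21, 0.0803), and the A549 call was lost without normoxia replicate 1 (0.73, adjusted p = 0.18) or hypoxia replicate 2 (0.73, adjusted p = 0.213). ITGA1, another collagen receptor subunit, was called in H460 (477 and 597 reads in normoxia and 937 and 1035 in hypoxia, 1.12 ± 0.10). PELO overlaps ITGA1 on the same strand, and whether their exons share reads was not checked. ITGA11 fell in H460 from 39 and 32 to 7 and 16 reads, and passed the count filter there through its normoxia libraries alone. Of the laminin-binding subunits, ITGA7 rose in RKO (605 and 769 reads in normoxia and 2097 and 2095 in hypoxia, 1.54 ± 0.18, adjusted p = 0.000196) and H460 (64 and 95 reads in normoxia and 161 and 147 in hypoxia, 1.20 ± 0.22, 0.000327), ITGA3 in RKO (0.67 ± 0.15, 0.00545) and ITGA6 in H460 (9644 and 9703 reads in normoxia and 16602 and 17376 in hypoxia, 1.04 ± 0.11, 5.66e-06). ITGA3 in H460 changed by -0.24 ± 0.10 and ITGA6 in RKO by -0.19 ± 0.16, neither called, though library size alone gave a call for ITGA3 in H460 (-0.59, adjusted p = 0.0005).

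Some leukocyte integrin subunits were near 0, with at most 16 reads of ITGAL and at most 2 of ITGAD in any library. ITGAX, an alpha subunit of myeloid cells, was well above 0 in RKO, where it gave 95 and 74 reads in normoxia and 1137 and 801 in hypoxia (3.43 ± 0.26, adjusted p = 4.08e-05). Its beta partner ITGB2 gave at most 2 reads in an RKO library. Of the leukocyte markers, the pan-leukocyte PTPRC and the T cell gene CD3E were at 0 in the 4 RKO libraries, CD14 gave at most 4 reads, and the actin-bundling LCP1 gave 22858 to 32968. The summed level of the marker list was 193 and 151 in RKO normoxia and 215 and 180 in RKO hypoxia. ITGAE, the alpha subunit that binds E-cadherin, was the single member called lower in 2 lines, with 697 and 880 reads in normoxia and 422 and 500 in hypoxia in RKO (-0.84 ± 0.21, adjusted p = 0.0108) and 964 and 1123 reads in normoxia and 413 and 457 in hypoxia in H460 (-1.03 ± 0.11, 3.84e-06). In A549 it changed by -0.27 ± 0.20 (0.527).

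Of the integrin beta subunits, 2 of 8 tested were called higher in A549 and 4 of 6 in H460. In RKO edgeR and DESeq2 called 0 of 3, of which 1 had an unadjusted p under 0.05. ITGB1 was called in H460 (25075 and 26939 reads in normoxia and 32397 and 36310 in hypoxia, 0.63 ± 0.10, adjusted p = 0.000151), near the fold threshold: the change was 0.51, adjusted p = 0.00189 without normoxia replicate 2 and 0.28, adjusted p = 0.0107 when scaled by library size. It was not called in RKO (0.32 ± 0.19, 0.208) or A549 (0.31 ± 0.18, 0.438). ITGB4, the beta subunit of the hemidesmosome, gave 11005 and 11867 reads in normoxia and 20694 and 47151 in hypoxia in A549 (1.74 ± 0.38, 0.0735) and 1199 and 1132 reads in normoxia and 6600 and 7855 in hypoxia in H460 (2.85 ± 0.12, 3.32e-09). In A549 ITGB4 lost its call with library size alone (1.64, adjusted p = 0.124), and its hypoxia libraries stood at 1.80 and 4.89 times its normoxia mean level. In H460 its alpha partner ITGA6 rose as well, and in RKO ITGB4 gave 20 to 31 reads. ITGB3 was called in A549 (5611 and 8139 reads in normoxia and 13373 and 21996 in hypoxia, 1.51 ± 0.32, 0.0621), though not without normoxia replicate 1 (1.25, adjusted p = 0.1), and in H460 with 13 and 22 against 34 and 28 reads. That H460 call was lost without normoxia replicate 1 (0.83, adjusted p = 0.124) or hypoxia replicate 1 (0.80, adjusted p = 0.143). In H460 the normoxia libraries of ITGB3 alone would not have passed the count filter, so this member was selected there by its high group. ITGB2 rose in H460 from 35 and 22 to 67 and 95 reads. ITGB5 was tested in all 3 lines and called in none (0.50 ± 0.16, 0.01 ± 0.20 and 0.37 ± 0.12). Leaving out RKO hypoxia replicate 2 gave a call for ITGB5 in RKO (0.62, adjusted p = 0.00742), as did library size alone (0.59, adjusted p = 0.0134). ITGB8 reached 11.3 ± 2.56 in H460 hypoxia (0.55 ± 0.15, not called) and ITGB6 9.09 ± 4.04 in A549 hypoxia (0.72 ± 0.32, not called). ITGB8 was called without H460 normoxia replicate 2 (0.72, adjusted p = 0.0019) or hypoxia replicate 1 (0.78, adjusted p = 2.11e-09), and ITGB6 without A549 hypoxia replicate 1 (1.11, adjusted p = 0.00274). ITGB7 gave at most 81 reads in any library.

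**Figure D5:**
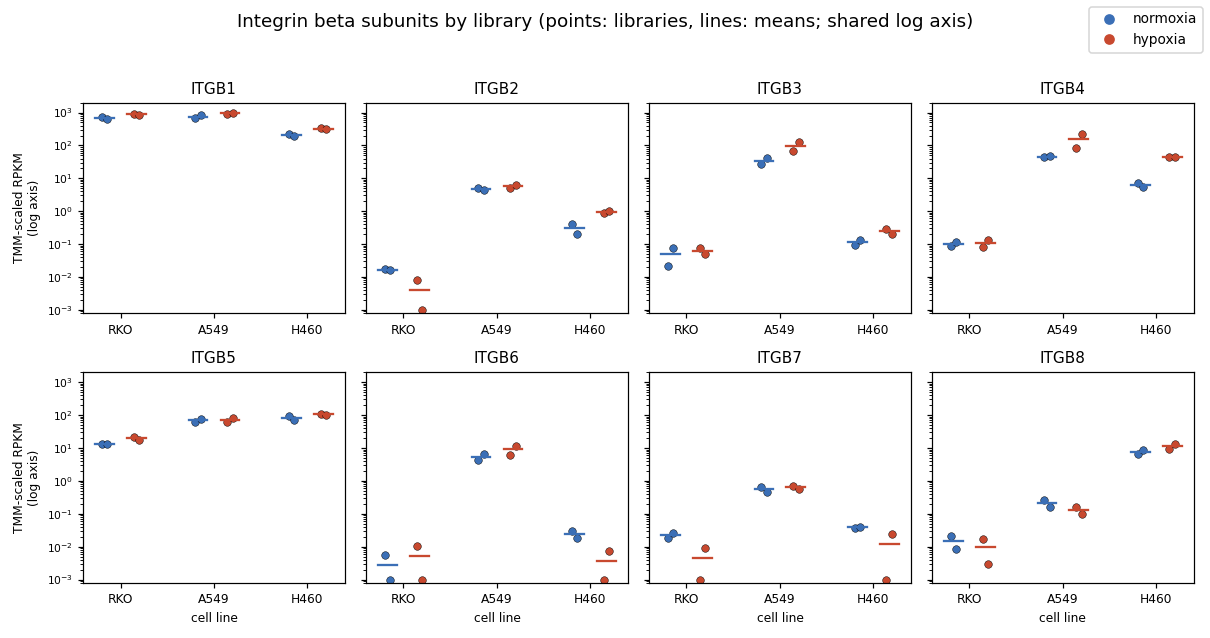
TMM-scaled RPKM (shared log axis) of the 8 integrin beta subunits in each library, by cell line, with blue points for normoxia, red for hypoxia and lines for means. Libraries with no read are drawn at 0.001. ITGB1 and ITGB5 were present in all lines, ITGB3, ITGB4 and ITGB6 were highest in A549 and ITGB8 in H460.

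Whether the hypoxia change itself differed between lines was tested in the fit of all 12 libraries. It differed for 31 of the 69 members in any of the lines (48.8% of all tested genes), with 11 when RKO was set against A549 (14.6%), 21 for RKO against H460 (37.6%) and 22 for A549 against H460 (36%). The change of LAMC3 was higher in RKO than in A549 by a log2 difference of 2.46 ± 0.31 and than in H460 by 2.85 ± 0.31. ITGA2B rose more in H460 than in RKO (-4.67 ± 0.78) and A549 (-4.64 ± 0.35). COL13A1 rose less in A549 than in RKO (2.46 ± 0.38 for RKO minus A549) or H460 (-2.23 ± 0.37 for A549 minus H460). ITGA7, called higher in RKO and H460, changed by -0.39 ± 0.41 in A549 (not called), with differences of 1.98 ± 0.40 and -1.60 ± 0.42 for the same pairs. COL7A1 rose more in RKO than in A549 (1.87 ± 0.27) and H460 (1.36 ± 0.27). ITGAX rose more in RKO than in A549 (2.89 ± 0.45), ITGA3 more in RKO than in H460 (0.95 ± 0.21), and ITGA6 more in H460 than in RKO (-1.18 ± 0.21 for RKO minus H460). Between A549 and H460, COL6A2 (-1.03 ± 0.23) and COL6A3 (2.46 ± 0.56) differed in opposite directions. The highest adjusted p among these was 0.0132, for ITGA7 between A549 and H460.

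Genes that work with the members were read from lists. Of all tested genes, 18.8% in RKO, 2.22% in A549 and 24.6% in H460 were called higher. Of 22 enzymes and chaperones that make collagen, RKO had 6 called higher out of 15 tested, A549 5 of 17 and H460 9 of 16. The prolyl 4-hydroxylase subunits P4HA1 (2.68 ± 0.20, 2.05 ± 0.20 and 2.62 ± 0.11 in RKO, A549 and H460) and P4HA2 (1.82 ± 0.16, 1.43 ± 0.21 and 4.07 ± 0.14) were called in every line. The cross-linking lysyl oxidase LOX was called in A549 (5.26 ± 0.57) and H460 (5.53 ± 0.21), and the lysyl hydroxylase PLOD2 in the same lines (1.40 ± 0.18 and 3.04 ± 0.14). The smallest called rises were BMP1 (0.79 ± 0.20) and PCOLCE (0.85 ± 0.20) in RKO and P4HB (0.89 ± 0.11) and PLOD1 (1.02 ± 0.10) in H460.

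Of 20 other basement membrane and matrix genes, 5 of 8 tested were called higher in RKO and 6 higher and 1 lower of 14 in H460. In A549 edgeR called 0 of 16, of which 6 were higher and 1 lower at an unadjusted p under 0.05, and DESeq2 called 3 higher. FN1, the fibronectin bound by ITGA5, rose in H460 (1.74 ± 0.14, adjusted p = 4.67e-07), with NID1 (1.17 ± 0.29), while THBS1 fell (-1.57 ± 0.26). In RKO the largest were NTN4 (1.42 ± 0.36) and FBN1 (1.18 ± 0.41). Of 23 genes of the integrin adhesion core, RKO had 3 higher and 2 lower of 21, A549 1 higher of 23, and H460 6 higher and 2 lower of 22. FERMT1, the epithelial kindlin that binds integrin beta tails, fell in RKO (-1.46 ± 0.17, 0.000228) and H460 (-1.52 ± 0.15, 2.41e-06). LIMS2 (1.66 ± 0.44) and ILK (1.14 ± 0.10) rose most in H460, PTK2B (0.92 ± 0.28) and KANK2 (0.71 ± 0.17) in RKO, and TNS1 (2.46 ± 0.47) was the single edgeR call in A549.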

How the data were processed

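The members, the gene lists and the tests were chosen with earlier results of these data known. The authors trimmed the strand-specific single-end reads, aligned them with TopHat2 2.0.13 to GRCh37 (hg19), removed alignments with a mapping quality under 10, marked duplicates with Picard 1.129 and counted exon reads with HTSeq 0.6.1 in the reverse-stranded, intersection-nonempty mode. They deposited one count per gene and library, and these deposited counts entered all main tests. The authors also deposited RPKM values, which were used for exon length and coordinates and in limma alternatives. There were 0 sample columns left unused.

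For the hypoxia change, the 4 libraries of a line were fitted together over all genes that exceeded 0.5 CPM in 2 or more of them. The fit was made in edgeR 4.0.16 (R 4.3.3), with TMM factors and the quasi-likelihood test. Calls needed a Benjamini-Hochberg adjusted p under 0.1 and a fold change over 1.5, the thresholds the study used with DESeq2. One joint fit of the 12 libraries gave the differences between lines in normoxia and in the hypoxia change, the latter called at the adjusted p alone. The edgeR steps were checked on simulated counts. Levels are counts per TMM-scaled library and kilobase. With 2 libraries per group the SD is itself imprecise, and a level rests on 1 read per kilobase being worth 0.0241 to 0.0419 RPKM.

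Named with values were called members with a mean of at least 100 counts and no overlap between conditions, the 10 highest members per line in normoxia, for each pair of lines the 5 clearest differences in the hypoxia change and the 5 largest in normoxia (both with the count minimum), members called in opposite directions, the laminin and collagen IV chains and the integrin beta subunits. Other called members are named with their reads. From each list the 2 largest and 2 smallest called changes were the candidates for examples. FERMT1 is also the lowest call of its list in both lines. One member and 1 marker gene entered the fits and counts and are not reported here. Other genes, markers and partner subunits were named after their values were seen. Alternatives were DESeq2 1.42.0, RLE factors, library size, other filters and fold thresholds, a joint fit, a replicate block, limma 3.58.1 after log2 transformation of RPKM (pseudocount 0.1 or 1), and leaving out each library.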

Additional observations from a re-analysis of the deposited data

Results flagged for a closer look

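These results stood out because the hypoxia change of the same gene differed between 2 cell lines in the test of the difference itself (edgeR, adjusted p over all genes under 0.1). Values are log2 differences of the hypoxia change, ± standard error. RKO minus A549 gave 2.46 ± 0.31 for LAMC3, 1.87 ± 0.27 for COL7A1, 2.46 ± 0.38 for COL13A1, 2.89 ± 0.45 for ITGAX and 1.98 ± 0.40 for ITGA7. RKO minus H460 gave 2.85 ± 0.31 for LAMC3, -4.67 ± 0.78 for ITGA2B, -1.18 ± 0.21 for ITGA6, 1.36 ± 0.27 for COL7A1 and 0.95 ± 0.21 for ITGA3. A549 minus H460 gave -4.64 ± 0.35 for ITGA2B, -2.23 ± 0.37 for COL13A1, -1.03 ± 0.23 for COL6A2, 2.46 ± 0.56 for COL6A3 and -1.60 ± 0.42 for ITGA7. The RKO values of LAMC3 rest on 17 to 101 reads and the H460 values of COL6A3 on 27 to 103. ITGA2B had too few RKO reads to be tested in the fit of RKO alone, which limits its RKO minus H460 value. H460 grew in another medium, so in the contrasts with H460 line and medium cannot be told apart.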

How the results depend on the processing

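No hypoxia change of a named member that was called in the reported fit took the other sign under an alternative. Of 128 hypoxia changes by named member and line, 20 that were not called in the reported fit took the other sign under at least 1 alternative. Of these, 8 did so with library size alone (COL4A1 in H460, for example, from 0.06 to -0.28, and LAMA3 in A549 from 0.03 to -0.06). COL3A1 in H460 (-0.29, not called) was called lower with library size alone (-0.64, adjusted p = 0.0334). Without normoxia replicate 2 its change was 0.08. The count of members called higher in A549 moved most, from 8 (2.22% of all genes) to 2 with library size alone (1.06%), 1 and 0 with limma (pseudocounts 0.1 and 1, 0.919% and 0.744%), 5 at a fold over 2 (1.83%), and 3 to 17 when single libraries were left out (3 without normoxia replicate 1, 2.11%, and 17 without hypoxia replicate 1, 7.7%), while 0 to 0 were called lower. The share over all genes thus moved too. In RKO 14 higher (18.8% of all genes) and 1 lower (15.1%) became 9 and 0 at a fold over 2 (10.6% and 4.85%). In H460 24 higher (24.6% of all genes) became 14 with limma (pseudocount 1, 11.4%) and 37 with no minimum fold (38%). The 6 lower (27.3%) became 3 with a filter of 2 CPM (26.7%) and 2 with limma (pseudocount 1, 31.7%). Without single libraries H460 gave 23 to 30 higher and 3 to 7 lower, with 3 lower without normoxia replicate 2. Without single libraries, differences in the hypoxia change, 11, 21, 22 and 31 with all libraries, ranged from 7 to 10 (RKO and A549), 12 to 23 (RKO and H460), 14 to 22 (A549 and H460) and 23 to 34 (any), and normoxia differences from 54 to 56, 58 to 61 and 55 to 57 in the same order of pairs. The shares over all genes moved as well when single libraries were left out, and the causes were not tested.

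The replicate number was tried as a block. Same-numbered libraries deviated together across genes with correlations of 0.340 (RKO), 0.344 (A549) and 0.113 (H460) over 2 pairs a line, and no source says that a number marks a shared batch, so the numbers are not known to pair the libraries. With the replicate block 16 members were called higher in A549, where 8.34% of all genes were called higher and 5.07% lower. The members called in A549 with the block and not without it were COL13A1, COL20A1, COL4A4, COL5A2, COL6A3, ITGA1, ITGA4 and ITGB6. Differences in the hypoxia change rose from 11 to 18 (RKO and A549, 14.6% to 26.9% of all genes) and from 22 to 36 (A549 and H460, 36% to 46.1%). With 2 libraries per group, a change that was not called may still be real.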

Other observations

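Of 16 matrix metalloproteases and their inhibitors, which cleave collagens and laminins or hold that cleavage in check, RKO had 5 called higher of 6 tested, A549 1 of 11, and H460 2 higher and 2 lower of 10 by edgeR, while DESeq2 called 4, 2 and 1 higher in the same order and 2 lower in H460. MMP1, the interstitial collagenase, rose in RKO (2.68 ± 0.52, edgeR adjusted p = 0.00266) and H460 (0.86 ± 0.34, 0.035). MMP15, a membrane-bound protease, was called in opposite directions, with a rise in RKO (1.13 ± 0.20, 0.00153) and a fall in H460 (-1.88 ± 0.15, 5.34e-07), and the difference between these lines was 3.06 ± 0.26 on the log2 scale (adjusted p = 7.41e-06). MMP9, a gelatinase that also cleaves collagen IV, was the single edgeR call in A549 (1.52 ± 0.34, 0.0778). In H460 the inhibitor TIMP4 fell (-1.49 ± 0.22) and TIMP1 rose (0.60 ± 0.11).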
